A study of Rattus norvegicus with 10 samples.

Results

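The genes described here are the corticosteroid receptors, their co-chaperones and a set of well known glucocorticoid-regulated genes in the rat hippocampus: Nr3c1, Nr3c2, Fkbp5, Fkbp4, Sgk1, Tsc22d3, Zbtb16, Pdk4, Errfi1 and Crhr1. They were chosen by name, with earlier results of these data known. All 10 are among the 17168 genes of the deposited tables and all 10 were among the 12161 genes with enough counts to be tested. RNA came from the left hippocampi of 10 TgF344-AD males killed at 11 months. TgF344-AD is a line that carries mutant human APP and presenilin transgenes driven by the mouse prion promoter. The 5 untreated rats ate plain chow. The 5 RG2833 rats ate chow holding 750 mg per kg of RG2833, which blocks the histone deacetylases HDAC1 and HDAC3, for 6 months from the age of 5 months. One sentence of the design text names ibudilast instead, and the sample labels and title, which name RG2833, were followed. All 10 rats carried the transgenes, and all were anaesthetised with ketamine and xylazine and perfused before the tissue was taken. Wild-type rats were not analysed here, and blood corticosterone and the hour of collection are not given in the sources used here.

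Corticosterone, the main glucocorticoid of the rat, acts through a pair of related nuclear receptors that bind the same DNA element. The mineralocorticoid receptor, encoded by Nr3c2, has the higher affinity and is largely occupied at resting hormone levels, while the glucocorticoid receptor, encoded by Nr3c1, fills when hormone rises with stress or with the daily peak. Hippocampal neurons are known for holding both. Before hormone binds, the glucocorticoid receptor sits in an HSP90 complex in which FKBP51, the product of Fkbp5, keeps affinity low, and FKBP52, the product of Fkbp4, favours movement to the nucleus. Fkbp5 is itself induced by the receptor.

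Depth was similar, with total expected counts from 15118203 to 18533520 per library, and each library is 1 rat. The tissue label was checked against marker genes. The dentate granule cell gene Prox1 was at 4.30 CPM (counts scaled to the TMM-adjusted library size) in untreated replicate 3, whereas the other 9 libraries held 21.5 to 50.5 CPM. The CA1 gene Wfs1 was at 135 to 390 CPM and the CA2 gene Rgs14 at 69.7 to 197 CPM. In untreated replicate 3 they were at 298 and 99.5 CPM. Some other CA1 markers, Fibcd1 (35.5 CPM) and Pou3f1 (19.6 CPM), were at their lowest of the 10 libraries there. So were the CA2 and CA3 markers Grik4 (29.5 CPM), Bok (34.0 CPM) and Amigo2 (11.3 CPM). The remaining tested markers of these cells were not. Untreated replicate 2 and RG2833 replicate 1 were rich in the choroid plexus transcript Ttr, at 6929 and 8190 CPM, against 3.11 to 236 CPM in the other 8. Values below are CPM on this scale unless a log2 scale is named, and since transcript lengths differ they are compared between libraries, not between genes.

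No member passed the comparison of RG2833 with untreated rats. In edgeR's quasi-likelihood test, 0 of the 10 had an adjusted p under 0.05 (0.00% of all genes tested did), and 0 of 10 had an unadjusted p under 0.05, where 5.66% of all genes tested did. DESeq2 and limma-voom also gave 0 of 10 at either threshold. Over all genes edgeR and limma-voom called 0 at an adjusted p under 0.05 and DESeq2 called 7, none of them a member. For 0 of the 10 genes did the groups fail to overlap, which 1.00% of all genes tested did. There were 5 members higher and 5 lower in RG2833, with a median log2 fold change of -0.02, beside -0.01 over all genes tested. In this paragraph and below, the fold change is RG2833 over untreated.

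**Figure D1:**
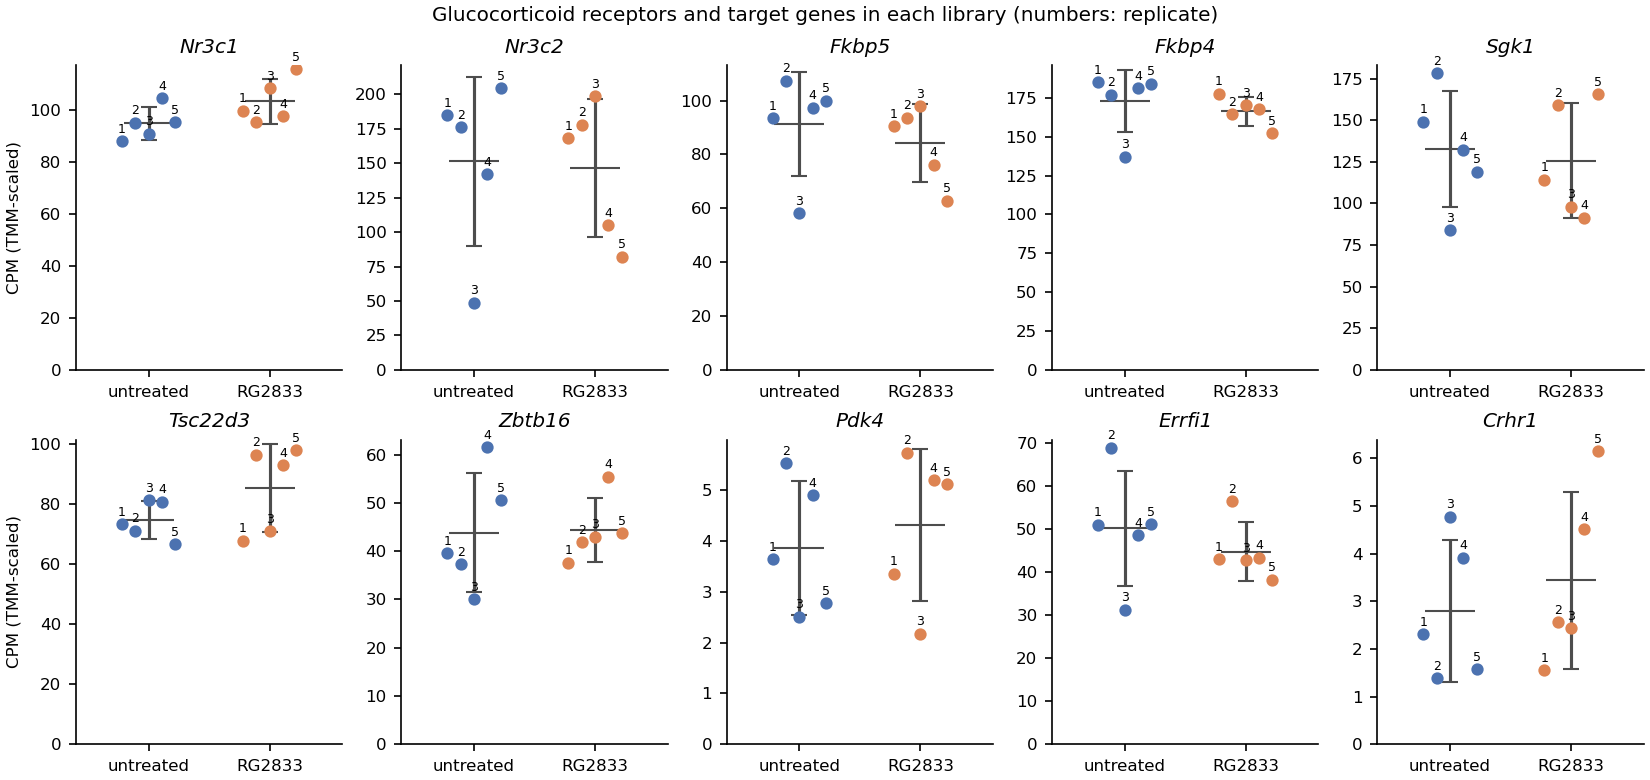
CPM of each of the 10 genes (vertical axes, from 0) in the 5 untreated (blue) and 5 RG2833 (orange) libraries, numbered by replicate, with the mean and SD of each group in grey. The groups overlap in every panel, and untreated replicate 3 is the lowest of the 10 libraries for Nr3c2, Fkbp5, Fkbp4, Sgk1, Zbtb16 and Errfi1.

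The glucocorticoid receptor gene Nr3c1 had the lowest coefficient of variation of the members. In untreated replicates 1 to 5 it was at 88.0, 94.96, 90.9, 105 and 95.2 CPM, and in RG2833 replicates 1 to 5 at 99.6, 95.1, 108, 97.5 and 116 CPM. All 5 RG2833 values lay above the untreated mean, 2 of them above the highest untreated value, and the ranges overlapped. The means were 94.7 ± 6.25 and 103 ± 8.57 CPM (SD, n = 5 per group), a log2 fold change of 0.12 (SE 0.07, 95% interval -0.03 to 0.28; edgeR adjusted p = 0.841, exact permutation p = 0.111). Without untreated replicate 4 the unadjusted edgeR p was 0.0476, at a log2 fold change of 0.16. Over all 10 libraries its coefficient of variation was 8.47%, below the median of 13.3% over the genes tested.

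The mineralocorticoid receptor gene Nr3c2 varied far more between rats. It was at 185, 176, 48.8, 142 and 205 CPM in untreated replicates 1 to 5, and at 168, 178, 199, 105 and 82.1 CPM in RG2833 replicates 1 to 5. Low values thus stood in both groups, in untreated replicate 3 and in RG2833 replicates 4 and 5, and the highest library held 4.195 times the level of the lowest. The coefficient of variation was 35.6%, higher than for 90.3% of the genes tested. The means were 151 ± 61.6 and 146 ± 50.1 CPM (n = 5 per group), with a log2 fold change of -0.05 (SE 0.36, 95% interval -0.84 to 0.74; edgeR adjusted p = 0.996, exact permutation p = 0.952). The sign of that value is not determined: the difference of mean log2 CPM was 0.03, and limma-voom gave 0.03. Without untreated replicate 3 it was -0.27, and it was above 0 without untreated replicate 1, 2 or 5 or RG2833 replicate 4 or 5, at most 0.11. The interval spans changes of over 1.5-fold in either direction.

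The balance of the receptors was taken as the log2 ratio of Nr3c2 to Nr3c1 within each library, a quantity that does not depend on library scaling. It averaged 0.52 ± 0.84 in the untreated group, beside 0.43 ± 0.61 with RG2833 (SD, n = 5 per group), a difference of -0.09 (exact permutation p = 0.849, adjusted over 2 ratios 0.849). The ratio ran from -0.90 in untreated replicate 3 and -0.50 in RG2833 replicate 5 to 1.10 in untreated replicate 5, so the spread within groups exceeded the difference between them. The difference changed sign without untreated replicate 1 (0.04), untreated replicate 5 (0.05) or RG2833 replicate 5 (0.14).

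Of the co-chaperones, Fkbp5 was at 93.5, 107, 58.1, 97.3 and 99.9 CPM in untreated replicates 1 to 5 and at 90.5, 93.6, 97.9, 76.2 and 62.8 CPM in RG2833 replicates 1 to 5. The 3 lowest values were in the same libraries as those of Nr3c2. The log2 fold change was -0.12 (SE 0.17, 95% interval -0.49 to 0.26; edgeR adjusted p = 0.954, exact permutation p = 0.603), with means of 91.3 ± 19.2 and 84.2 ± 14.5 CPM (n = 5 per group). Leaving out untreated replicate 3 gave -0.24, and leaving out RG2833 replicate 5 gave -0.02. Fkbp4 stayed between 177 and 185 CPM in 4 untreated libraries, was at 137 CPM in untreated replicate 3, and ran from 152 to 178 CPM under RG2833. Its log2 fold change was -0.06 (SE 0.09, 95% interval -0.25 to 0.14; edgeR adjusted p = 0.958). Without untreated replicate 3 it was -0.13, at an unadjusted edgeR p of 0.0494 and an adjusted p of 0.351. The log2 ratio of Fkbp5 to Fkbp4 was -0.94 ± 0.19 in the untreated group, beside -1.0001 ± 0.21 with RG2833 (n = 5 per group), a difference of -0.06 (exact permutation p = 0.698, adjusted over 2 ratios 0.849). That difference was 0.01 without RG2833 replicate 5.

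Among the induced genes, Tsc22d3, which encodes the leucine zipper protein GILZ, had the largest of the higher values. It was at 73.1, 71.0, 81.3, 80.8 and 66.6 CPM in untreated replicates 1 to 5 and at 67.7, 96.3, 71.0, 92.8 and 97.9 CPM in RG2833 replicates 1 to 5. The RG2833 libraries fell apart, 3 above every untreated value and 2 within the untreated range. The means were 74.6 ± 6.36 and 85.1 ± 14.6 CPM (n = 5 per group), a log2 fold change of 0.19 (SE 0.12, 95% interval -0.07 to 0.45; edgeR adjusted p = 0.847, exact permutation p = 0.198). Without RG2833 replicate 1 it was 0.26, at an unadjusted edgeR p of 0.0313 and an adjusted p of 0.654.

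Sgk1, a kinase named for its induction by serum and glucocorticoid, ran from 84.1 to 178 CPM in untreated and from 91.4 to 166 CPM in RG2833 libraries. Its log2 fold change was -0.08 (SE 0.22, 95% interval -0.56 to 0.41; edgeR adjusted p = 0.981), and it turned to 0.08 without the libraries rich in Ttr, untreated replicate 2 and RG2833 replicate 1, where Sgk1 was at 178 and 114 CPM. Leaving out untreated replicate 2 gave 0.05, and leaving out RG2833 replicate 4 gave 0.02. Zbtb16, a zinc finger transcription factor also called PLZF, ran from 30.1 to 61.6 CPM untreated and from 37.6 to 55.5 CPM with RG2833; its log2 fold change was 0.02 (SE 0.18, 95% interval -0.38 to 0.42; edgeR adjusted p = 0.996). It was below 0 without untreated replicate 1, 2 or 3 or RG2833 replicate 4, down to -0.09, and 0.17 without untreated replicate 4.

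Errfi1, an inhibitor of the EGF receptor, was at 51.0, 68.9, 31.2, 48.6 and 51.1 CPM in untreated replicates 1 to 5 and at 42.9, 56.4, 42.7, 43.3 and 38.2 CPM in RG2833 replicates 1 to 5. All but 1 of the RG2833 values lay below the untreated mean of 50.2 CPM and none below the lowest untreated value. The log2 fold change was -0.17 (SE 0.18, 95% interval -0.56 to 0.23; edgeR adjusted p = 0.927). It was -0.29 without untreated replicate 3, at an unadjusted edgeR p of 0.0481 and an adjusted p of 0.349, and -0.02 without untreated replicate 2. Pdk4, a kinase that shuts off pyruvate dehydrogenase, rested on 34 to 108 counts per library, with levels from 2.51 to 5.53 CPM in untreated and from 2.175 to 5.74 CPM in RG2833 rats. Its log2 fold change was 0.16 (SE 0.30, 95% interval -0.50 to 0.82; edgeR adjusted p = 0.969), and counting error alone gives a coefficient of variation of 12.1% there, beside 33.0% observed. With a library left out the fold change ran from 0.03 (RG2833 replicate 2) to 0.33 (RG2833 replicate 3), and it was 0.39 without both Ttr-rich libraries.

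Crhr1 encodes the main receptor for corticotropin-releasing hormone, the peptide at the head of the stress axis. It had the fewest counts, 24 to 89 per library. The level was 2.31, 1.38, 4.78, 3.92 and 1.57 CPM in untreated replicates 1 to 5 and 1.55, 2.56, 2.43, 4.51 and 6.16 CPM in RG2833 replicates 1 to 5. High values stood in untreated replicates 3 and 4 and in RG2833 replicates 4 and 5. The log2 fold change was 0.30 (SE 0.44, 95% interval -0.66 to 1.27; edgeR adjusted p = 0.953), and without RG2833 replicate 5 it was -0.0095. Its coefficient of variation over the 10 libraries, 52.2%, was higher than for 95.9% of the genes tested, with 14.0% from counting error.

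**Figure D2:**
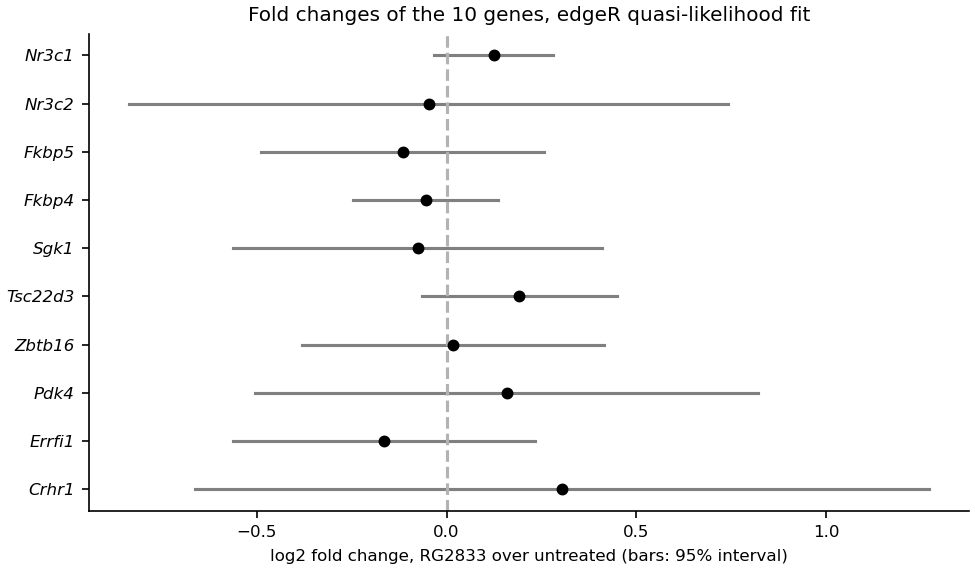
Log2 fold change of RG2833 over untreated (horizontal axis) for each of the 10 genes, with its 95% interval from the edgeR quasi-likelihood fit. All 10 intervals include 0, from the narrowest for Nr3c1 (-0.03 to 0.28) to the widest for Crhr1 (-0.66 to 1.27).

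Some members varied together from rat to rat. Over the 10 libraries, 6 of the 45 pairs of members had a correlation of log2 CPM that passed a permutation test after adjustment over the 45. Nr3c2 and Fkbp5 went together most closely (Pearson r = 0.945, permutation p = 0.00063, adjusted p = 0.0142; Spearman rho = 0.770, p = 0.0124, adjusted p = 0.222). With each group centred on its mean, r was 0.965 (exact permutation p = 0.00354, adjusted p = 0.0523), and without untreated replicate 3 and RG2833 replicate 5, the libraries farthest from the median of Nr3c2, it was 0.773. Fkbp5 and Errfi1 had r = 0.841 (permutation p = 0.00047, adjusted p = 0.0142; rho = 0.733, p = 0.0205, adjusted p = 0.222), and r = 0.626 without the libraries farthest from the median of Fkbp5, which are the same ones.

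Crhr1 ran the other way. Against Nr3c2 it had r = -0.788 (permutation p = 0.0031, adjusted p = 0.0234; rho = -0.685, p = 0.0343, adjusted p = 0.222) and against Fkbp5 r = -0.805 (permutation p = 0.00308, adjusted p = 0.0234; rho = -0.721, p = 0.0227, adjusted p = 0.222). Leaving out the same pair of libraries gave r = -0.749 and -0.652. The correlations of Fkbp4 with Nr3c2 (r = 0.887, permutation p = 0.00312; rho = 0.648, p = 0.0493) and with Fkbp5 (r = 0.885, permutation p = 0.00211; rho = 0.576, p = 0.0869) each had an adjusted p of 0.0234 for r. They rested on those libraries: without them r was 0.328 and 0.423.

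How many pairs passed depended on single libraries. There were 0 without untreated replicate 3, 1 without untreated replicate 5 or RG2833 replicate 5, 2 without RG2833 replicate 4 and 3 without untreated replicate 1. With each group centred on its mean the number was 0, where r itself stayed within 0.03 of the values above for these 6 pairs and the smallest adjusted p was 0.0523. By Spearman's rho 0 pairs passed.

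Not all of the induced genes varied together at a level that passed. Fkbp5 and Tsc22d3, both standard readouts of receptor activity, had r = -0.569 (permutation p = 0.0902, adjusted p = 0.261; rho = -0.600, p = 0.0727), and r = -0.566 without the libraries farthest from the median of Fkbp5. Fkbp5 and Sgk1 had r = 0.371 (permutation p = 0.293, adjusted p = 0.573; rho = 0.394, p = 0.264), and r = 0.632 without those libraries. Sgk1 and Pdk4 had r = 0.649 (permutation p = 0.0484, adjusted p = 0.168; rho = 0.648, p = 0.0496), and r = 0.471 without the libraries farthest from the median of Sgk1. Within the untreated and RG2833 groups r was -0.629 and -0.622 for Fkbp5 and Tsc22d3. In the same order it was 0.883 and -0.350 for Fkbp5 and Sgk1, and 0.836 and 0.540 for Sgk1 and Pdk4. The receptors themselves were not correlated at a level that passed (Nr3c1 and Nr3c2, r = -0.064, permutation p = 0.860, adjusted p = 0.900; rho = -0.127, p = 0.735), with r = 0.168 without RG2833 replicates 3 and 5.

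**Figure D3:**
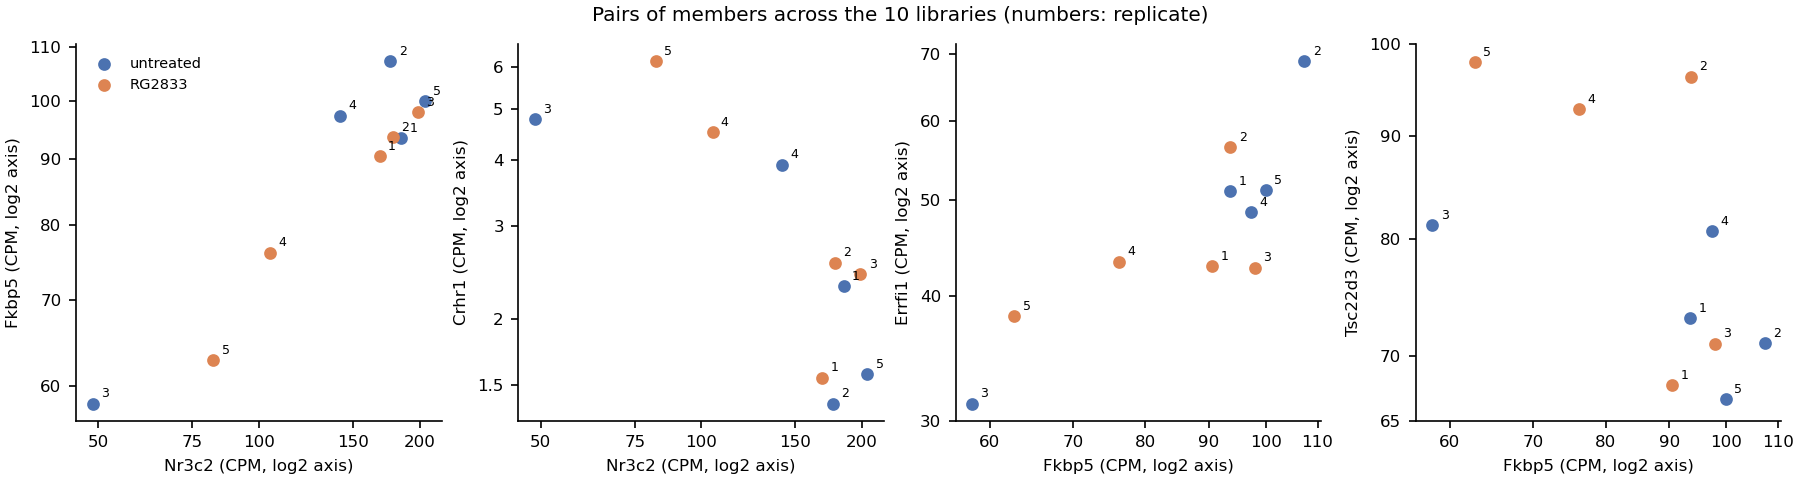
Levels of 4 pairs of members in the 10 libraries (CPM on log2 axes; blue, untreated; orange, RG2833; numbers, replicate). Fkbp5 rises with Nr3c2 (r = 0.945), Crhr1 falls with it (r = -0.788), Errfi1 rises with Fkbp5 (r = 0.841), and Tsc22d3 against Fkbp5 does not pass (r = -0.569).

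Some members varied with the mean level of cell type marker lists. Of 90 pairs of a member with 1 of 9 marker lists, 19 passed by Pearson's r after adjustment over the 90, and all of these belonged to Fkbp5, Fkbp4, Nr3c2, Crhr1 or Errfi1. By Spearman's rho 5 passed, each at an adjusted p of 0.0455: Crhr1 with the microglia, astrocyte and dentate markers, Nr3c2 with the neuronal markers and Fkbp4 with the endothelial markers. The p given beside each rho below is unadjusted. The largest correlation of Nr3c2 was negative, with the microglia markers (r = -0.952, permutation p = 0.00058, adjusted p = 0.0104; rho = -0.770, p = 0.0124; r = -0.793 without the libraries farthest from the median of the list), and it also ran against the endothelial markers (r = -0.817, permutation p = 0.00384, adjusted p = 0.0314; rho = -0.782, p = 0.0107; r = -0.644 likewise). It followed the dentate granule cell markers (r = 0.913, permutation p = 0.00039, adjusted p = 0.008775; rho = 0.770, p = 0.0124; r = 0.876) and the mean of the general neuronal markers (r = 0.926, permutation p = 0.00014, adjusted p = 0.0045; rho = 0.879, p = 0.00168; r = 0.917). The genes of that neuronal list did not all move together in untreated replicate 3, where Nr3c2 was lowest. Most of them, Neurod2 (42.6 CPM), Slc17a7 (1029 CPM), Rbfox3 (116 CPM), Syt1 (298 CPM) and Snap25 (1385 CPM), were at their lowest of the 10 libraries. Map2 (1657 CPM) and Camk2a (1910 CPM) were at their highest of the untreated libraries, and Tubb3 (379 CPM) was exceeded only in untreated replicate 1. Fkbp5 followed the dentate markers (r = 0.896, permutation p = 0.00015, adjusted p = 0.0045; rho = 0.806, p = 0.00697; r = 0.766) and ran against the microglia markers (r = -0.952, permutation p = 9e-05, adjusted p = 0.0045; rho = -0.806, p = 0.00697; r = -0.876). Crhr1 followed the microglia (r = 0.812, permutation p = 0.00305, adjusted p = 0.0274; rho = 0.867, p = 0.00253; r = 0.777) and astrocyte markers (r = 0.828, permutation p = 0.00565, adjusted p = 0.0391; rho = 0.891, p = 0.00114; r = 0.690).

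In untreated replicate 3 the mean log2 CPM of the dentate list lay 1.46 below the mean of the 10 libraries and that of the microglia list 0.63 above it. In RG2833 replicate 5 these deviations were -0.56 and 0.29, and in RG2833 replicate 4 they were -0.35 and 0.23. The dentate mean was that of 4 tested genes of 7, which did not all move together. In untreated replicate 3, Prox1 (4.30 CPM), C1ql2 (7.10 CPM) and Trpc6 (16.9 CPM) were at their lowest of the 10 libraries. Plk5 (19.7 CPM) was exceeded only in untreated replicate 2 (30.2 CPM). In such bulk samples fewer cells of a type and less RNA per cell cannot be told apart, and the part of cell makeup in the levels of the members was not tested. The 19 pairs became 11 without untreated replicate 2 or untreated replicate 3, 8 without untreated replicate 5, 9 without RG2833 replicate 4, 6 without RG2833 replicate 5 and 10 with each group centred on its mean. Sgk1, Zbtb16, Pdk4, Nr3c1 and Tsc22d3 passed with none of the 9 lists. The smallest adjusted p among these was 0.0557, for Tsc22d3 with the astrocyte markers (r = 0.774, permutation p = 0.0124; rho = 0.673, p = 0.0388; r = 0.565 without the libraries farthest from the median of the list). The lists for choroid plexus, CA2 and CA3 cells and thalamus split the libraries into separate clusters, so no correlation was taken with them.

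For each member, the genes with the most similar pattern over the 10 libraries were the best of 11713 compared and are given as a description. They were Usp34 (r = 0.949), Klhl24 (0.920) and Itpr1 (0.917) for Nr3c1, and Ksr1 (0.995), Usp20 (0.995) and Adamts3 (0.993) for Nr3c2. Fkbp5 was closest to Adck2 (0.984), Rem2 (0.983) and Mas1 (0.982), of which Mas1 encodes a receptor for an angiotensin peptide. Fkbp4 was closest to the chaperonin subunit gene Cct4 (0.969), Kdm1a (0.964) and Ahsa1 (0.962), which encodes an activator of HSP90. Crhr1 was closest to Nrsn1 (0.979), Aktip (0.977) and Trib1 (0.9747), and Errfi1 to Pelo (0.964), Mgmt (0.943) and Polh (0.940). The closest were less alike for Tsc22d3 (Cyp4f5, 0.910; Psph, 0.907; Eva1a, 0.901), Zbtb16 (Slitrk6, 0.922; Atg10, 0.920; Xkr6, 0.912) and Pdk4 (Rhoa, 0.904; Wdr53, 0.862; Usp8, 0.851), and least for Sgk1 (Wdr43, 0.845; Bcl2l13, 0.825; Htatsf1, 0.820).

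Promoter sequence was searched for every member with a promoter entry. RefSeq's table for the GRCr8 assembly, a different build from the rn6 named in the submitters' processing notes, gave 14 start sites for 8 of the 10 members, all but Nr3c2 and Zbtb16, and the 250 bases before each start were searched. The receptors' hexamer, TGTTCT on either strand (AGAACA read on the other), was in 0 of the 14 windows and in 17.5% of all 33469 windows of that length. This says only that these letters are not in these windows. The windows of Fkbp5, Fkbp4 and Errfi1 are shown because Fkbp5 was correlated with both of the others, and they were not chosen for their motifs. CCAAT or its reverse ATTGG was in 5 of the 14 windows (35.7%; the other windows with it are 1 of Tsc22d3 and that of Pdk4), beside 34.0% of all windows, a share near the background. TATAAA on the sense strand was in 4 of 14 (1 of Errfi1, 1 of Tsc22d3 and 2 of Sgk1), beside 8.06% of all windows. Capitals mark these motifs. CCAAT begins 208 bases before the start in Fkbp5 and 184 and 61 bases before it in Fkbp4. In Errfi1 ATTGG begins 93 and TATAAA 35 bases before the start.
Fkbp5, chr20:6543556-6543805, minus strand: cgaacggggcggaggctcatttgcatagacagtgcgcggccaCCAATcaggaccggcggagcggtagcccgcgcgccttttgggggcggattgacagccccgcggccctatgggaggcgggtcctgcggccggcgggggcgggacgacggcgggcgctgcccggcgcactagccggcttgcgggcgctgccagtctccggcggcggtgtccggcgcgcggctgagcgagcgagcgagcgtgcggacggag
Fkbp4, chr4:163397919-163398168, minus strand: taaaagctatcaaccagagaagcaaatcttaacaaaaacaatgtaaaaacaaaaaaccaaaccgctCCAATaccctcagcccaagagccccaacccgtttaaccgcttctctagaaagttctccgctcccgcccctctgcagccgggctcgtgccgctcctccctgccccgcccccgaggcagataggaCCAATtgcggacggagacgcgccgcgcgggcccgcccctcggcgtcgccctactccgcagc
Errfi1, chr5:166606591-166606840, plus strand: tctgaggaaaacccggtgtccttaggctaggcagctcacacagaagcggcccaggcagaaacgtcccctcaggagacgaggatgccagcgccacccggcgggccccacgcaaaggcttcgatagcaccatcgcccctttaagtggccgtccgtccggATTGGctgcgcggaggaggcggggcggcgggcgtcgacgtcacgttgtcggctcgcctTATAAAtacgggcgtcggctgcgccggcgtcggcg

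Other genes of the pathway were taken from 6 lists. Of the 63 tested genes of these lists, 4 had an unadjusted p under 0.05, all higher in RG2833, and 0 passed edgeR's adjustment over all genes. Over all genes tested, 2.94% were at an unadjusted p under 0.05 and higher, and 2.71% at an unadjusted p under 0.05 and lower. The lists were chosen with earlier results of these data known, so the count is not an independent comparison with these shares. Under DESeq2, 2 of the 63, Hsd11b1 and Mt2A, had an adjusted p under 0.05.

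Hsd11b1, whose enzyme regenerates active glucocorticoid from its inert keto form inside cells, showed the clearest separation of the genes that handle the hormone. It was at 67.3, 55.5, 75.6, 60.4 and 64.8 CPM in untreated replicates 1 to 5 and at 75.2, 94.4, 98.6, 106 and 108 CPM in RG2833 replicates 1 to 5. Of the RG2833 libraries, 4 were above every untreated library, and RG2833 replicate 1 fell just under untreated replicate 3. The means were 64.7 ± 7.56 and 96.6 ± 13.2 CPM (n = 5 per group), a log2 fold change of 0.58 (SE 0.11, 95% interval 0.33 to 0.82; unadjusted edgeR p = 0.000318, adjusted p = 0.841; exact permutation p = 0.0159). DESeq2 gave 0.58 with an adjusted p of 0.0112, and over the fits that each left out a library the value ran from 0.53 to 0.65. Of the 8 tested genes of steroid metabolism and export it was the 1 with an unadjusted p under 0.05. The median of that list was 0.0072 on the log2 scale, and its sign changed in 3 of 19 alternatives. Hsd11b2, the enzyme that inactivates the hormone, had too few counts to be tested.

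Among 22 further glucocorticoid-induced genes, 15 were higher and 7 lower, with a median log2 fold change of 0.05, beside -0.01 and 46.5% higher over all genes tested. That median ran from 0.03 without RG2833 replicate 5 to 0.14 without RG2833 replicate 3. Mt2A, a metal-binding metallothionein, was at 41.4, 50.7, 45.0, 49.0 and 54.3 CPM in untreated and at 63.3, 66.6, 79.1, 62.0 and 88.2 CPM in RG2833 replicates 1 to 5, so that the groups did not overlap. Its log2 fold change was 0.58 (SE 0.11, 95% interval 0.33 to 0.83; unadjusted edgeR p = 0.000354, adjusted p = 0.841; exact permutation p = 0.00794, the smallest that 5 against 5 allows). DESeq2 gave an adjusted p of 0.0112. How reads were divided between Mt2A and the similar Mt1a, which had a log2 fold change of 0.09 (SE 0.14), is not given in the sources used here, so this value is uncertain.

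Fam107a, a stress-responsive actin-binding protein, averaged 1134 ± 211 CPM without and 1568 ± 343 CPM with RG2833 (n = 5 per group), a log2 fold change of 0.47 (SE 0.17; unadjusted edgeR p = 0.0189, adjusted p = 0.841; exact permutation p = 0.0476). Glul, the glutamine synthetase of astrocytes, averaged 1540 ± 288 and 2052 ± 503 CPM (n = 5 per group), a log2 fold change of 0.41 (SE 0.18; unadjusted edgeR p = 0.0420, adjusted p = 0.841; exact permutation p = 0.0952). Without RG2833 replicate 5 they were 0.36 and 0.29, at unadjusted edgeR p of 0.0503 and 0.113. Glul was also above 0.05 without untreated replicate 1, 2, 4 or 5, without RG2833 replicate 4 and with upper-quartile normalization. Leaving out libraries changed how many of the 22 (3) had an unadjusted p under 0.05. Without untreated replicate 3 it was 6, of which Arrdc2 was lower, while 14.2% of all genes were under 0.05. It was 5 without RG2833 replicate 1, where 7.59% of all genes were, and 4 without RG2833 replicate 3, where 4.81% were. It was 2 without untreated replicate 1 (5.21%), 2 (4.17%), 4 (4.88%) or 5 (4.62%) or RG2833 replicate 4 (3.07%), and 1, Mt2A, without RG2833 replicate 5, where 3.47% were. The circadian and stress gene Per1, often used as a receptor target, had a log2 fold change of -0.11 (SE 0.13; exact permutation p = 0.429).

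Some marker lists had a higher mean with RG2833, none at an exact permutation p under 0.05. Of the astrocyte list all 10 tested markers were higher, 3 of them at an unadjusted p under 0.05 (5.66% of all genes tested were), and their mean log2 CPM was higher by 0.35 (SD 0.25 and 0.27, n = 5 per group; exact permutation p = 0.0873). Their summed level ran from 6912 to 10740 CPM in untreated and from 7980 to 11812 CPM in RG2833 libraries, and none was at 0 in any library. The CA1 pyramidal list was higher by 0.39 (6 of 6 genes higher, 1 at an unadjusted p under 0.05; exact permutation p = 0.111). The endothelial list was higher by 0.20 (6 of 8 higher, exact permutation p = 0.444) and the microglia list by 0.07 (6 of 9 higher, exact permutation p = 0.770). The mean of each of the other 8 lists was lower. Of their genes, 5 had an unadjusted edgeR p under 0.05, where 5.66% of all genes tested did. Of 8 tested interneuron genes, Sst (log2 fold change -0.50) and Npy (-0.44) were lower and Pvalb (0.37) was higher. Plk5 (-0.92), 1 of 4 tested dentate genes, and Zic1 (-1.22), 1 of 7 tested genes of the thalamus list, were lower. The part of any of these lists in the values of Hsd11b1, Mt2A, Fam107a and Glul was not tested.

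**Figure D4:**
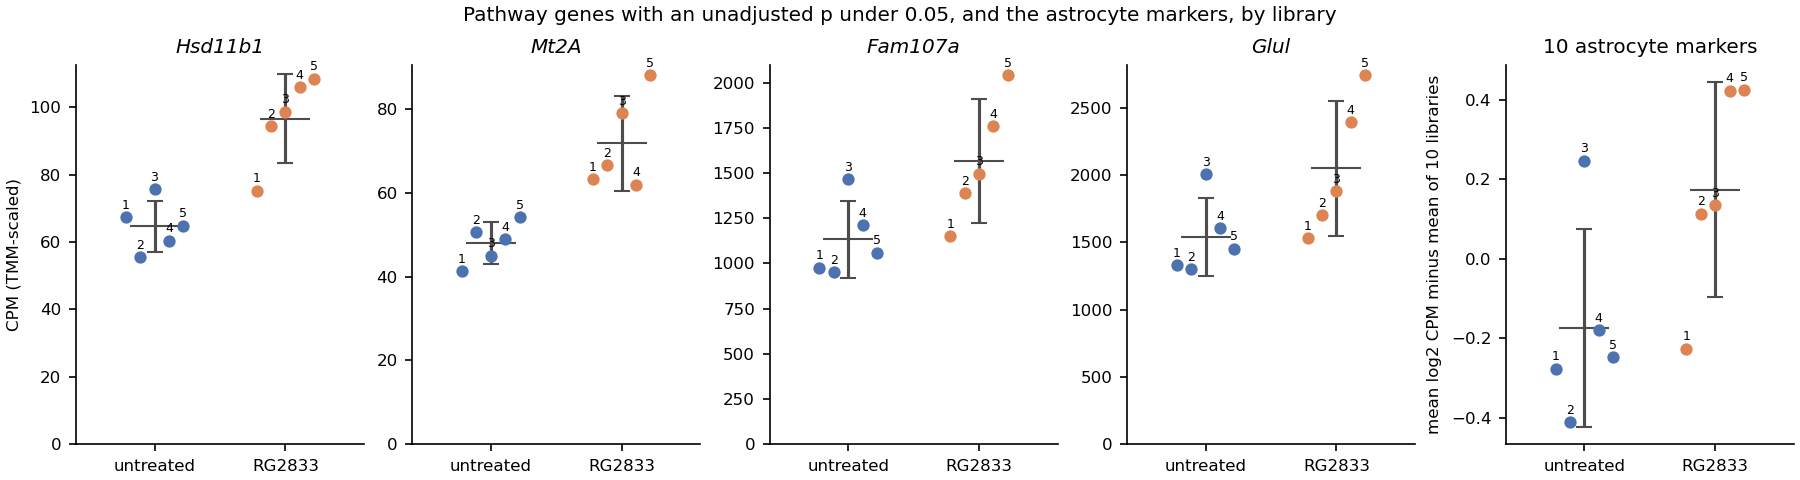
CPM of Hsd11b1, Mt2A, Fam107a and Glul by library, and the mean log2 CPM of 10 astrocyte markers as a deviation from the mean of the 10 libraries (blue, untreated; orange, RG2833; numbers, replicate; grey, mean and SD). The groups are apart for Mt2A and overlap for the other genes and for the markers.

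The remaining lists held no gene with an unadjusted p under 0.05 in the edgeR test of all 10 libraries. With other settings or with libraries left out, Bag1, Crhbp, Avpr1a, Mc4r, Oxtr, Pgr and Esr1 each came under 0.05 at least once, and none of them had an adjusted p under 0.05. Bag1 did so in DESeq2, at an unadjusted p of 0.0398. Of the 12 receptor chaperones and co-chaperones, 9 were lower and 3 higher, with a median log2 fold change of -0.06, which ran from -0.09 without untreated replicate 3 to -0.0011 without RG2833 replicate 5. The largest was Bag1, a partner of HSP70 that can restrain the receptor, at 51.3 ± 3.90 and 56.6 ± 2.65 CPM (n = 5 per group; log2 fold change 0.14, SE 0.06; unadjusted edgeR p = 0.0535; exact permutation p = 0.0476). Of the 10 tested co-regulators, 8 were higher, with a median of 0.05, which ran from 0.0095 without untreated replicate 3 to 0.07 without untreated replicate 2, and the largest was 0.21 for the nuclear receptor Nr2f2 (SE 0.34). Without untreated replicate 3 that value was 0.50, and it was 0.04 to 0.06 without untreated replicate 4 or 5 or RG2833 replicate 4. Of the CRH, vasopressin and oxytocin system 6 of 14 genes were tested, 4 lower and 2 higher, with a median of -0.43, which ran from -0.06 without RG2833 replicate 3 to -0.48 without untreated replicate 2 and was -0.08 with a filter of 1 CPM in 5 libraries. The largest was -0.58 for the CRH receptor Crhr2 (SE 0.70), which was -1.19 without RG2833 replicate 1 and -0.31 without RG2833 replicate 3. The 5 tested genes for other steroid receptors were all higher, with a median of 0.15, which ran from 0.08 without untreated replicate 3 to 0.24 without untreated replicate 1, and the largest, the estrogen receptor gene Esr1, was at 0.57 ± 0.22 and 0.87 ± 0.39 CPM (n = 5 per group; log2 fold change 0.62, SE 0.38; exact permutation p = 0.206), on 5 to 21 counts per library. Without RG2833 replicate 5 its unadjusted edgeR p was 0.0385.

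**Figure D5:**
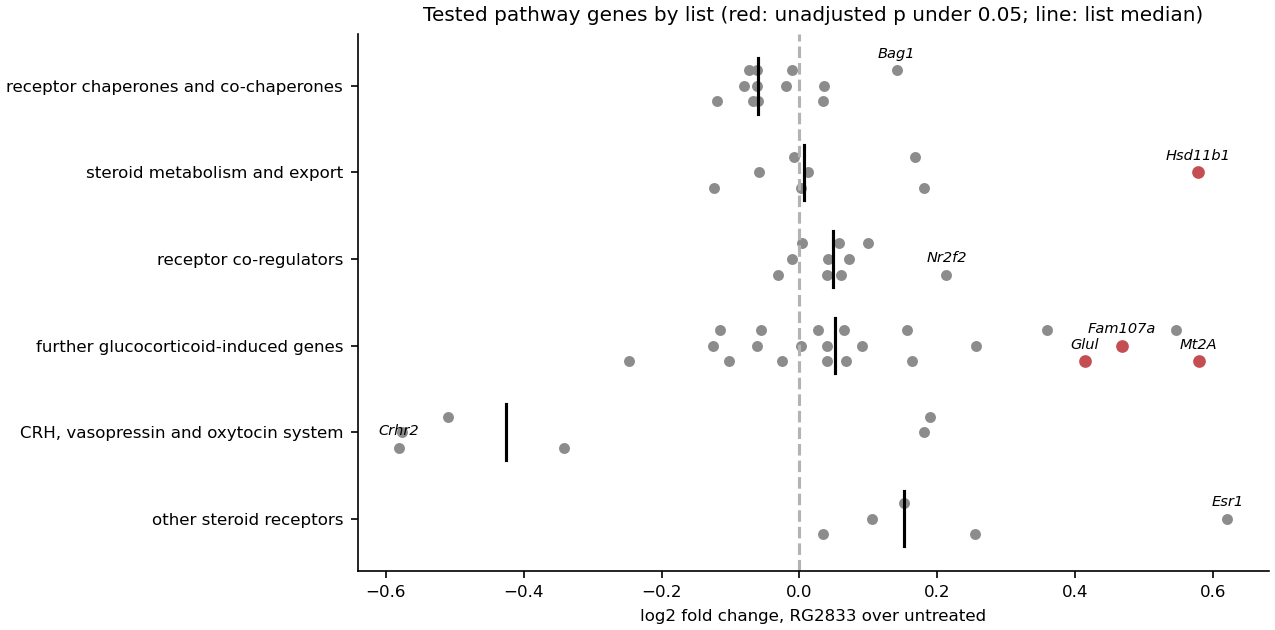
Log2 fold change of RG2833 over untreated (horizontal axis) for every tested gene of the 6 pathway lists; black lines are list medians, and red points have an unadjusted p under 0.05. The 4 red points, Hsd11b1, Mt2A, Fam107a and Glul, lie between 0.41 and 0.58, and the list medians lie between -0.43 and 0.15.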

How the data were processed

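Gene counts came from strand-specific mRNA libraries of 10 hippocampi, per the labels' protocols. The deposited table holds RSEM expected counts, estimates that need not be whole (11.6% are not). The submitters' processing notes name bcl2fastq 2.17, Bowtie2 2.1.0, RSEM 1.2.15, edgeR and the build rn6. Settings and the annotation are not given in the sources used here. A second deposited table holds the authors' signal, TMM-scaled CPM. In each library 100% of its positive values were whole multiples of a single step to within 0.01 reads, and a fit on these recovered whole reads called 0 genes.

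After rounding, the expected counts went into edgeR 4.0.16 (R 4.3.3): filterByExpr (minimum count 10, minimum total 15), TMM, quasi-likelihood F test with robust dispersions, no covariates, and Benjamini-Hochberg adjustment over 12161 genes at 0.05. Standard errors came from the F statistic and 95% intervals from its degrees of freedom. A prior count of 2 was added for log2 CPM. Single values were compared by two-sided exact permutation over 252 regroupings (smallest p 0.00794). Correlations used 100000 permutations, exact enumeration for 9 libraries, or exact permutation within groups after centring. DESeq2 1.42.0 and limma 3.58.1 were alternatives. The edgeR script was first tested on simulated data.

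The members, lists and marker genes were chosen with earlier results of these data known. The text names all members, pathway genes at an unadjusted p under 0.05, the largest change in each list, and the 3 genes most like each member. Mt1a, Per1, Hsd11b2, genes that passed only in other settings and single marker genes were added for context after their values were seen. No library duplicated another: chi-square per gene was 7.38 or more in each of the 45 pairs. The labels give each library its own rat, and p-values measure the spread between these rats. No batch is given in the labels.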

Additional observations from a re-analysis of the deposited data

Results flagged for a closer look

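Values that lay far from the rest of their group of 5 on the log2 scale are listed here. This means that more than 0.71 of the log2 range separated them from their neighbour. Gaps on the CPM scale would differ. Of 40 such sets for the members, the named pathway genes and the receptor ratios, 4 did so, where chance, at 1 in 20, gives 2. The sets are not independent, as Nr3c2, Fkbp5 and Fkbp4 were correlated and the ratios are built from members. The 2 is therefore a rough guide only. Untreated replicate 3 was low in its group for Nr3c2, with a gap of 0.744 of the range, for Fkbp5, with 0.776, and for Fkbp4, with 0.854. RG2833 replicate 4 was high in its group for Nr2f2, at 42.3 CPM against 24.02 to 28.0 CPM in the other 4, a gap of 0.729 of the log2 range.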

How the results depend on the processing

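The calls over all genes numbered 0 in every edgeR fit and in limma-voom, and 7 in DESeq2. Genes at an unadjusted p under 0.05 numbered 688, or 401 with the replicate number as a block, and from 375 to 1732 when each library was left out in turn. No library number marks a shared litter or day in the labels, and same-numbered libraries did not deviate together (r across genes from -0.49 to -0.03, where 0 of 5 pairs correlated best with their own number), so the block pairs libraries by number alone. For the members, no alternative gave an adjusted p under 0.05. Fold changes kept their sign in all 19 alternatives for Nr3c1, Fkbp5, Fkbp4, Tsc22d3, Pdk4 and Errfi1. They changed sign for Nr3c2 (0.0317 in limma-voom, and -0.27 to 0.11 with a library left out), Sgk1 (0.0782 without both Ttr-rich libraries, and -0.20 to 0.0538), Zbtb16 (-0.0934 to 0.17) and Crhr1 (-0.0095 to 0.58). The ratio of Nr3c2 to Nr3c1 ran from -0.45 to 0.14 and that of Fkbp5 to Fkbp4 from -0.13 to 0.014 with a library left out. The median of the CRH, vasopressin and oxytocin list, -0.43, was -0.0807 with the stricter filter, which tested 4 of its genes, and -0.48 to -0.0606 with a library left out. Correlated pairs of members numbered 6, 0 with centred groups and 0 to 7 with a library left out. Pairs of a member and a marker list numbered 19, 10 with centred groups and 6 to 20 with a library left out, alternatives chosen after seeing the data. The causes were not tested. At this depth Pdk4 rested on 34 to 108 and Crhr1 on 24 to 89 counts per library.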
